A study of Homo sapiens with 12 samples.

Results

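The 60-mer array used here carried 350 probes, for 236 genes, whose gene name was ZNF followed by digits and whose position lay on chromosome 19, out of 50599 non-control probes for 36337 gene names. The rule used name and position and no measured value, and was set with earlier results of these data known. RNA came from Colo320DM, an established human colorectal cancer line with high *TET1* expression, and was hybridised to 12 one-colour Agilent arrays in 4 groups of 3. All 6 clones carried a stably integrated artificial-microRNA vector (pcDNA6.2-GW/EmGFP-miR) under G418 selection. The 3 control clones held the miR-neg plasmid and the 3 knockdown clones a vector against *TET1*, the dioxygenase that oxidises 5-methylcytosine. Per the study's text one artificial microRNA was used for its Colo320DM clones KD1 and KD2 and another for KD3. The labels do not name the microRNA, and KD1 to KD3 were taken to be knockdown clones 1 to 3. Clone and microRNA differences cannot be told apart here. Each clone gave 1 array without drug (mock) and 1 after exposure for 72 h to 1 µM 5-aza-dC (5-aza-2'-deoxycytidine, decitabine), a cytosine analogue that traps DNA methyltransferases.

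Most zinc finger genes of chromosome 19 encode KRAB zinc finger proteins, in which tandem C2H2 fingers read DNA and the KRAB domain binds TRIM28 (KAP1). TRIM28 in turn brings the H3K9 methyltransferase SETDB1, HP1 proteins and deacetylases, so that many members silence transposable elements and imprinted regions. The genes arose by tandem duplication and stand in clusters on both chromosome arms, and CpG-rich promoters of several of them are known to be methylated in tumours.

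Promoters of 6 member genes are printed because the results below turn on these genes and both *TET1* and 5-aza-dC act on cytosine methylation at CpG. They run from 250 bases before to 50 after the RefSeq start (RefSeq, GRCh38.p14) and are written 5′ to 3′ with each CG dinucleotide in capitals. *ZNF426* (chr19:9538596-9538895, minus strand), *ZNF528* (chr19:52397599-52397898, plus strand) and *ZNF814* (chr19:57888988-57889287, minus strand) were called higher after 5-aza-dC. *ZNF730* (chr19:23116775-23117074, plus strand) was called lower in the knockdown clones, while *ZNF304* (chr19:57351021-57351320, plus strand) and *ZNF69* (chr19:11887532-11887831, plus strand) were among the lowest p-values there without being called.
ZNF426: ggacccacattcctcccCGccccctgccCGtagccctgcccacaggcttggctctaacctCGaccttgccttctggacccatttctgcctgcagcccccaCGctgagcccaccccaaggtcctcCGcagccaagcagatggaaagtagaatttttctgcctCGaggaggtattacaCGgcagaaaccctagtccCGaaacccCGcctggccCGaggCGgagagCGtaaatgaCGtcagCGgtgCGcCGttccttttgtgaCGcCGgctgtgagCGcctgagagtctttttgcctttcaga
ZNF528: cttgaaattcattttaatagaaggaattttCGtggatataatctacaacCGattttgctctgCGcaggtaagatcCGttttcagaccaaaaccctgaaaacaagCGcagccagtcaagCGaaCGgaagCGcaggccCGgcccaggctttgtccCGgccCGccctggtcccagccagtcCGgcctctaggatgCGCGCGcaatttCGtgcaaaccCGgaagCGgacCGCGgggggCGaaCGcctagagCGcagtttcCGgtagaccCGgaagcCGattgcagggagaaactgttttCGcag
ZNF814: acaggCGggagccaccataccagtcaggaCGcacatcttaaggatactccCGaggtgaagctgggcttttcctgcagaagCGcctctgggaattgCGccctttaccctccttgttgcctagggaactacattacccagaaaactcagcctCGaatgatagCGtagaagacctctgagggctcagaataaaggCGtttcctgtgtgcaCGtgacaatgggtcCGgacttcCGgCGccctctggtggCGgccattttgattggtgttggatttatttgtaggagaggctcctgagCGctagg
ZNF730: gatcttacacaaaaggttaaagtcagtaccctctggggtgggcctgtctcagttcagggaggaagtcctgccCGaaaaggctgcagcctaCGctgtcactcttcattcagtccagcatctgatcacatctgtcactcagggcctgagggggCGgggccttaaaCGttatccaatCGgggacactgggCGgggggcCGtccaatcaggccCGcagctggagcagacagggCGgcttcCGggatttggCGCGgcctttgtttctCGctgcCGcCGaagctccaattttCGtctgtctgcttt
ZNF304: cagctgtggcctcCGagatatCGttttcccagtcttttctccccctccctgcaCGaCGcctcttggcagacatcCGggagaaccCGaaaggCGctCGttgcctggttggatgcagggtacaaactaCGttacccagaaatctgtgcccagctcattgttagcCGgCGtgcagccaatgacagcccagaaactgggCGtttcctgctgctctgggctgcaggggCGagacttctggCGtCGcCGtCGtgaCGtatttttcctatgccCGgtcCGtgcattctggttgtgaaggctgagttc
ZNF69: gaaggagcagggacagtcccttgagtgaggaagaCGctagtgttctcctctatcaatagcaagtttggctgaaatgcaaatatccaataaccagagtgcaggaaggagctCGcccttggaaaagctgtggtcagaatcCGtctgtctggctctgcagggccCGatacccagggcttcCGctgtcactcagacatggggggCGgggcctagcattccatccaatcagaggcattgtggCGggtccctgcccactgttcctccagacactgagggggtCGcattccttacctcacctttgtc
The CG dinucleotide occurred 19, 27 and 14 times in the promoters of *ZNF426*, *ZNF528* and *ZNF814*, and 16, 20 and 8 times in those of *ZNF730*, *ZNF304* and *ZNF69*. CG reads the same on both strands, so 1 count serves for both. Of 35116 RefSeq promoters of this length, 28.2% held at least as many CG as *ZNF528*, 50.3% as many as *ZNF814* and 60.7% as many as *ZNF69*. For 203 of the 236 member genes a promoter was found by symbol, with a median of 20 CG (quartiles 15 and 26) against 14 (4 and 28) over all promoters. *ZNF542*, listed by RefSeq as *ZNF542P*, had no entry.

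Levels are log2 processed signals minus the 75th percentile of the array, so 0 is the level of that percentile and most probes lie below it. Arrays lay on 2 slides. Slide 1 held mock control clones 1 and 2, every mock knockdown clone and, of the treated arrays, knockdown clones 1 and 3, and slide 2 held the other 5 arrays, among them all treated control clones. The signal at the 75th percentile ranged from 240.7 to 359 units, 45.7% to 52.87% of all probes were well above background, and no spot was saturated. *TET1* had a mean of 4.48 ± 0.23 (SD, n = 3) in mock control and 3.56 ± 0.04 in mock knockdown clones, a difference of -0.93 (limma, adjusted p = 0.276), with no overlap of the clones (exact permutation p = 0.1, the lowest that 3 against 3 can give). After 5-aza-dC this probe read 4.06, 4.42 and 4.16 in control and 2.98, 4.31 and 3.35 in knockdown clones, so that treated knockdown clone 2 lay within the control range. A second *TET1* probe separated the clone types under both treatments, and another separated them after 5-aza-dC and overlapped under mock treatment (exact permutation p = 0.2). Of 6 colorectal epithelial markers, CDX2, KRT8 and KRT18 were detected on all 12 arrays, EPCAM on 10, VIL1 on 1 and CDH1 on none. The leukocyte marker PTPRC and the fibroblast marker COL1A1 were detected on 12 arrays, and CD3E, VWF and CDH5 on 4, 7 and 9, while COL1A2 and PECAM1 were on none and DCN on 1, so that labels and markers did not coincide in full. The part of this in the results below was not tested.

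Most members were expressed in these cells. On all 12 arrays 223 probes were well above background, 34 probes were so on none, and 172 genes had a probe detected on every array while 15 genes had none on any. The median level of the 350 probes over all arrays was -1.5, against -4.19 for all probes, and levels ran from -6.2 to 9.78. The brightest members, each by its brightest probe, were *ZNF865* (9.78), *ZNF799* (8.09), *ZNF525* (7.31), *ZNF526* (6.84) and *ZNF428* (5.58). Other probes of the same gene could be far dimmer. The other *ZNF799* probe had a mean of -2.47. In mock control clone 1, other *ZNF865* probes read 0.40 and -2.73 where the brightest read 9.72. Signals of different probes are not comparable as amounts of RNA, and many members are near-identical paralogues whose transcripts can bind each other's probes.

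Fewer members were detected in the mock knockdown clones. Mock control clones 1 to 3 had 279, 284 and 272 of 350 probes well above background, mock knockdown clones 243, 261 and 257, treated control clones 294, 280 and 275, and treated knockdown clones 266, 269 and 273. The median level of the 350 probes was -1.23, -1.22 and -1.12 in mock control, -1.91, -1.57 and -1.98 in mock knockdown, -1.05, -1.32 and -1.11 in treated control, and -1.68, -1.41 and -1.85 in treated knockdown clones. Control and knockdown clones did not overlap in either measure, under mock treatment or under 5-aza-dC. After 5-aza-dC the gaps were small (273 against 275 probes, -1.41 against -1.32), and slide and clone type were nearly confounded. Over all probes of the array, 25482, 25505 and 23105 were detected in mock control and 23764, 23725 and 25429 in mock knockdown clones. These counts overlapped, as did those of the treated clones. For zinc finger probes on other chromosomes the mean over clones of the median level was -0.62 ± 0.01 in mock control and -0.77 ± 0.14 in mock knockdown clones. In bulk RNA, fewer cells that express a gene and less RNA per cell cannot be told apart.

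**Figure D1:**
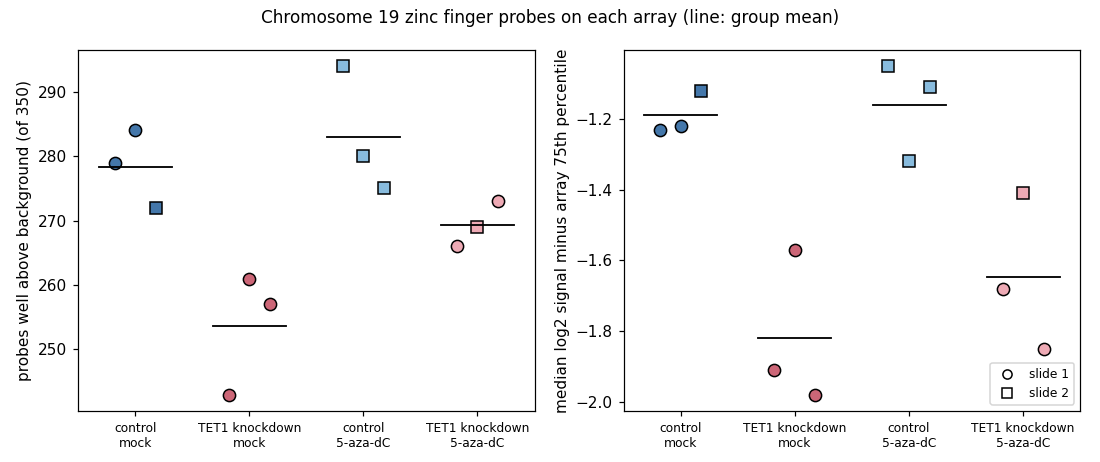
Number of chromosome 19 zinc finger probes well above background (left, of 350) and their median log2 signal minus the array's 75th percentile (right) on each of the 12 arrays, in the 4 groups; round points lay on slide 1 and square points on slide 2, and the line is the group mean. Mock knockdown arrays sit at 243 to 261 probes and at -1.98 to -1.57, below all 3 mock control arrays in both panels.

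In mock-treated cells the chromosome 19 zinc finger genes stood lower in the knockdown clones as a group, and single genes seldom passed the test. Over all 350 probes, with no filter, the median difference of knockdown minus control was -0.44 on the log2 scale and 83.1% of probes lay below 0, while the median of all probes on the array was 0.08. Among the 233 member probes well above background on every one of the 6 arrays the median was -0.44 and 89.3% lay below 0. With the filter used for testing (well above background on at least 3 of the 6 arrays), 274 members had a median of -0.47 (quartiles -0.91 and -0.18) against 0.04 for the 24748 probes tested. Zinc finger probes on other chromosomes had a median of -0.11 (314 tested) and other chromosome 19 probes -0.02 (1183 tested).

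One member, *ZNF730*, was called lower (adjusted p under 0.05 over all probes tested) and none higher, where 0.105% of all probes were called lower and 0.0323% higher. At an unadjusted p under 0.05, 95 of the 274 members were lower (34.7%) and 3 higher, against 5.41% of all probes lower. The 3 clones of each type did not overlap for 123 members that were lower in the knockdown clones (44.9%, background 9.11%) and for 8 that were higher (2.92%, background 12.2%). With slide as a block the median was -0.49, and within slide 1 (control clones 1 and 2 against the 3 knockdown clones) it was -0.46 with no member called. Without knockdown clone 2, 7 member probes were called lower (2.55%, against 0.338% of all probes), and without a control clone or knockdown clone 1 none was. Low values were found in every knockdown clone, with medians against the control mean of -0.52, -0.27 and -0.64 for clones 1, 2 and 3.

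**Figure D2:**
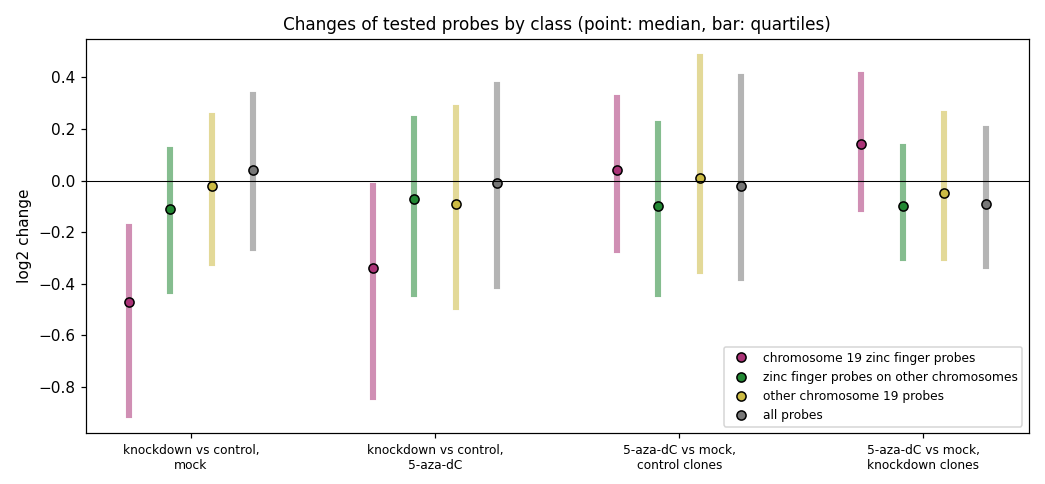
Median log2 change (point) and quartiles (bar) of tested probes for chromosome 19 zinc finger probes, zinc finger probes on other chromosomes, other chromosome 19 probes and all probes, in 4 comparisons. The chromosome 19 zinc finger probes have a median of -0.47 and an upper quartile of -0.18 in the mock knockdown comparison, while the median of all probes is 0.04.

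The difference varied along the chromosome. Members were split where neighbouring probes lay more than 1 Mb apart (hg19), which gave 9 position groups of at least 5 genes, numbered from the short-arm end, and 12 scattered probes. The 2 groups with the lowest median lay on the short arm. Position group 3 (11.6 to 12.74 Mb, *ZNF653* to *ZNF791*, 25 genes) had a median of -1.05 over 28 tested probes, of which 26 lay below 0. Position group 4 (19.79 to 24.31 Mb, *ZNF101* to *ZNF254*, 34 genes) had a median of -1.08 over 38, of which 37 lay below 0. The clone types did not overlap for 18 of the 28 and 24 of the 38 probes with lower levels in the knockdown clones, and for 1 of group 3 with a higher level. That probe was for *ZNF799* (a difference of 0.16), whose other probe differed by -0.92 without overlap.

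The other position groups were less low or near 0. Group 8 (52.09 to 54.08 Mb, 51 tested) had a median of -0.63, group 6 (36.67 to 38.23 Mb, 32 tested) -0.48, group 2 (7.09 to 9.87 Mb, 16 tested) -0.39 and group 9 (56.0 to 58.99 Mb, 66 tested) -0.33. Group 7 (44.04 to 45.58 Mb, 25 tested) had a median of -0.18, group 5 (35.17 to 35.45 Mb, 5 tested) -0.14 and group 1 (2.84 to 2.93 Mb, 5 tested) -0.03, while 8 scattered probes had -0.09. In group 1, *ZNF555*, *ZNF57* and *ZNF77* gave differences between -0.07 and 0.30. Non-member probes lying within the span of group 3 had a median of 0.01 (8 tested) and those within group 4 -0.38 (20 tested). Within group 6 they had -0.42 (30 tested), close to the -0.48 of its members, and within groups 8 and 9 -0.26 (16 tested) and -0.24 (45 tested). Within groups 2, 5 and 7 their medians were -0.11 (46 tested), -0.27 (2 tested) and 0.05 (29 tested), and group 1 held none.

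**Figure D3:**
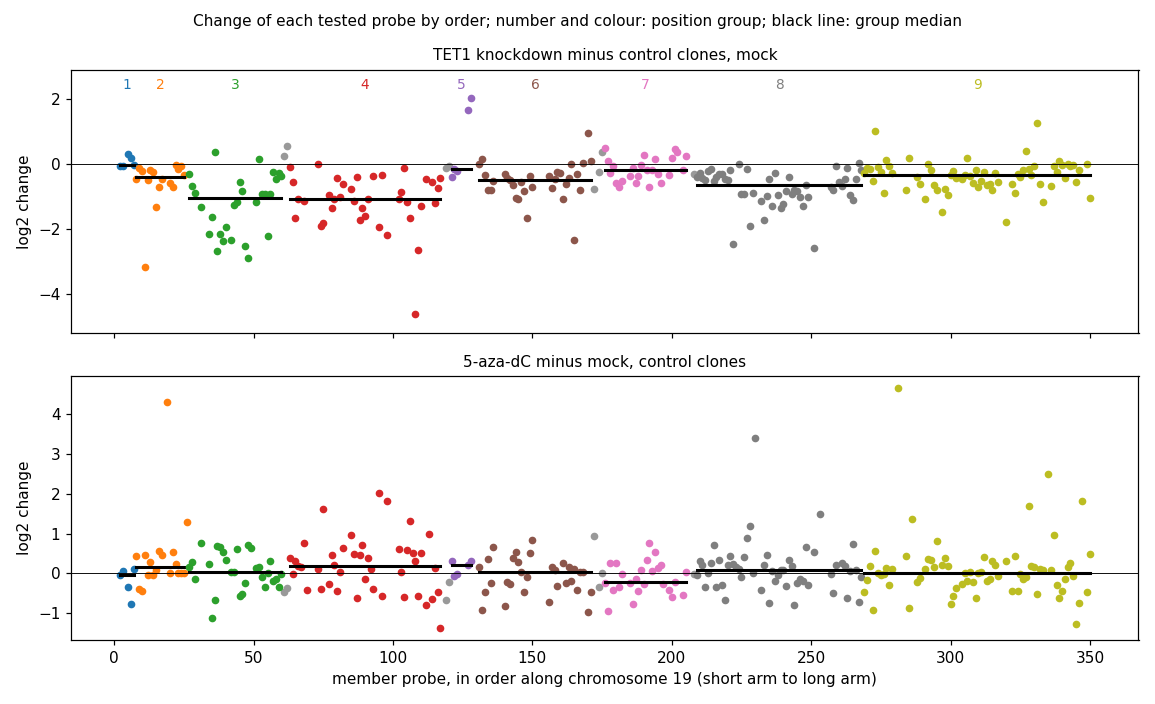
Log2 change of each tested member probe by its order along chromosome 19, for knockdown minus control clones under mock treatment (top) and 5-aza-dC minus mock in control clones (bottom); colours and numbers mark position groups, grey the scattered probes, and black lines the group medians. In the top panel groups 3 and 4 have medians of -1.05 and -1.08 and in the bottom panel the medians of groups 1 to 9 lie between -0.21 and 0.21; probes not well above background in a group, such as *ZNF730* in the knockdown clones, are drawn at their measured values.

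Detection was also lower in both of these groups. Of the probe measurements of group 3, 84.3% were well above background in mock control and 59.8% in mock knockdown clones, and of group 4 75.2% and 62.4%. Smaller drops were found in group 2 (82.5% to 77.2%), group 6 (76.4% to 69.9%), group 8 (85.6% to 78.9%) and group 9 (82.5% to 79.7%). Group 7 had 83.3% and 82.2%, group 1 71.4% in both and group 5 43.3% and 50%. Within slide 1 the medians of groups 3 and 4 were -0.99 and -0.82, and with slide as a block -1.02 and -0.85. With detection on every array required they were -0.69 and -1.0, against -0.44 for all members. Under normexp with offset 50 and quantile normalization they were -0.54 and -0.78, against -0.29. Both settings thus gave group 3 a median less low than the -1.05 of the main fit. The first left out every probe lost in a knockdown clone. The second also made the medians of group 4 and of all members less low. Mock control clone 3, on slide 2, had a median level of 0.52 over the tested group 4 probes against -0.02 and -0.21 for control clones 1 and 2. Knockdown clone 2 stood closest to the control clones, with -0.55 in both groups, while clones 1 and 3 had -1.43 and -0.97 in group 3 and -1.06 and -1.52 in group 4.

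**Figure D4:**
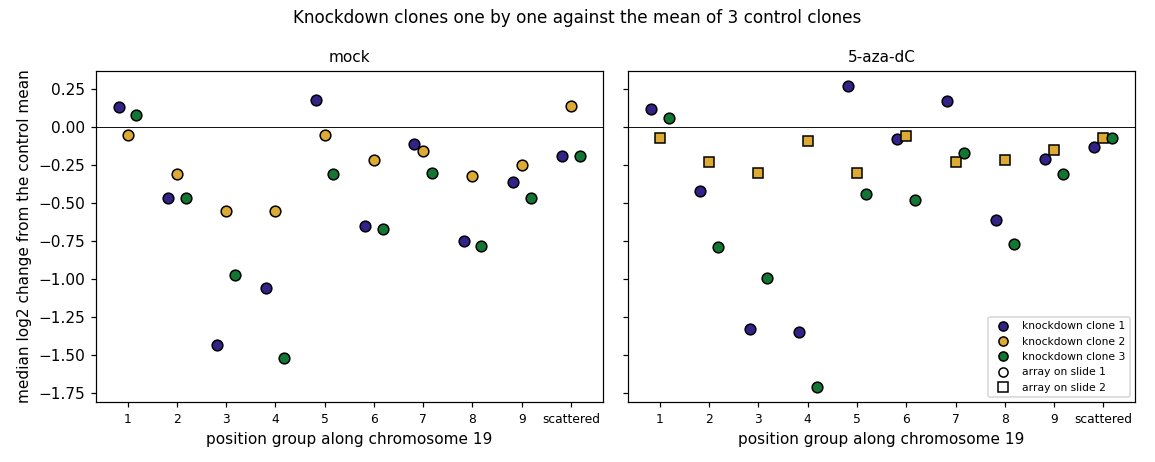
Median log2 change of each knockdown clone from the mean of the 3 control clones, by position group, under mock treatment (left) and 5-aza-dC (right); colours mark clones, round points arrays on slide 1 and square points arrays on slide 2, where all treated control clones lay. In groups 3 and 4 clones 1 and 3 lie between -1.71 and -0.97 in both panels, while clone 2 lies at -0.55 under mock treatment and at -0.30 and -0.09 under 5-aza-dC.

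Promoter CpG content and probe composition also varied with position. The median CG count of the promoter was 16 in group 3 (23 promoters) and 10 in group 4 (26 promoters), the lowest of the 9 groups, against 25 in group 8 and 23 in groups 6 and 9. With 1 probe per gene, 22 tested members with 12 or fewer CG had a median difference of -1.16, and those with 13 to 18, 19 to 24 and 25 or more had -0.48, -0.41 and -0.42. As most of the genes with few CG lay in groups 3 and 4 (22 of 29), CG count and position went together over the members. The rank correlation of CG count with the difference was 0.27 over 170 member genes, 0.26 within groups 3 and 4 (41 genes) and 0.03 outside them (129 genes), and over all genes with a promoter it was -0.03 (9574 genes). Genes of a cluster share duplicated sequence, and all values come from the same 6 arrays.

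The GC content of the probe moved with the difference as well. Member probes had a median GC content of 40% against 43.3% for all probes. The rank correlation of probe GC with the difference was 0.39 over 197 member genes and 0.13 over 18414 genes. At a probe GC of 35 to under 40% the median was -1.27 for groups 3 and 4, -0.55 for the other members and -0.01 for non-member probes. At 45% or more it was -0.47, -0.18 and 0.09. Members thus lay below other probes of like composition in each of the 4 ranges, and the part of probe composition in their differences was not tested.

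*ZNF730*, a KRAB zinc finger gene of group 4, was the one member called between clone types. Its probe (chr19:23332658-23332717, hg19, plus strand) read -1.69, -1.10 and -0.80 in mock control and -6.16, -5.78 and -5.50 in mock knockdown clones. After 5-aza-dC it read -1.61, -0.70 and -0.35 in control and -6.35, -5.55 and -5.74 in knockdown clones. It was well above background on all 6 control arrays and on none of the 6 knockdown arrays, so only a bound is given, at least 6.74-fold lower in mock and at least 8.69-fold lower in treated knockdown clones. The bound sets the control mean against the lowest signal that counted as detected on each knockdown array. The fitted changes were called (limma, adjusted p = 0.00434 under mock and 0.0206 under 5-aza-dC). With slide as a block the adjusted p was 0.0223 under mock and 0.0555 under 5-aza-dC. Without knockdown clone 1 it was 0.051 and 0.0709, and without clone 3 it was 0.148 under 5-aza-dC. Leaving out a control clone took the probe below the detection filter. A second *ZNF730* probe was lower on all 6 knockdown arrays but was detected on only 3 of 12 arrays.

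The members with the next lowest p-values under mock treatment were not called. *ZNF304*, a KRAB protein known for silencing the *INK4-ARF* locus in colorectal cancer cells, read -0.91, -0.88 and -0.76 in mock control and -2.30, -2.21 and -2.42 in mock knockdown clones. The difference was -1.46 ± 0.17 (SE, n = 3 per group, limma adjusted p = 0.0609), and after 5-aza-dC it was -0.94 ± 0.20 (adjusted p = 0.15). Clones of each type lay close together and the types did not overlap under either treatment. In a fit over all 12 arrays with slide as a block the mock difference was called (adjusted p = 0.00325). Under the other 18 of 19 alternative settings it was not called.

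*ZNF486* of group 4 read -1.85, -1.55 and -1.64 in control and -3.69, -2.98 and -4.06 in knockdown clones under mock treatment (adjusted p = 0.175). *ZNF69* of group 3 read -3.01, -3.72 and -2.95 against -5.59, -4.68 and -5.85, and was well above background in all control and no knockdown clones (at least 1.65-fold lower, adjusted p = 0.216). *ZNF790* of group 6 read -3.0, -3.06 and -2.96 against -4.65, -4.18 and -5.19 with the same pattern of detection (at least 1.92-fold lower, adjusted p = 0.193). The other *ZNF790* probe was detected on all 12 arrays and differed by -0.84 without overlap (adjusted p = 0.391). Knockdown clone 2 was the highest of the 3 for each of these genes.

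In all, 10 member probes (2.86% of 350) were detected in the 3 mock control clones and in no mock knockdown clone, and none the other way round, against 0.283% and 0.0632% of all probes. Beside *ZNF730*, *ZNF69* and *ZNF790* these were *ZNF433*, *ZNF878*, *ZNF788*, *ZNF625*, *ZNF506*, *ZNF836* and *ZNF701*, which are named for this pattern after their values were seen. Of the 10 probes, 5 lay in group 3. Bounds for these 7 ran from 1.33-fold lower for *ZNF625* to 2.48-fold lower for *ZNF433*, and none was called. Another probe of *ZNF625* was detected on all 12 arrays (a difference of -0.55), and *ZNF701* had 2 other probes detected in knockdown clones (-0.46 and -0.28).

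**Figure D5:**
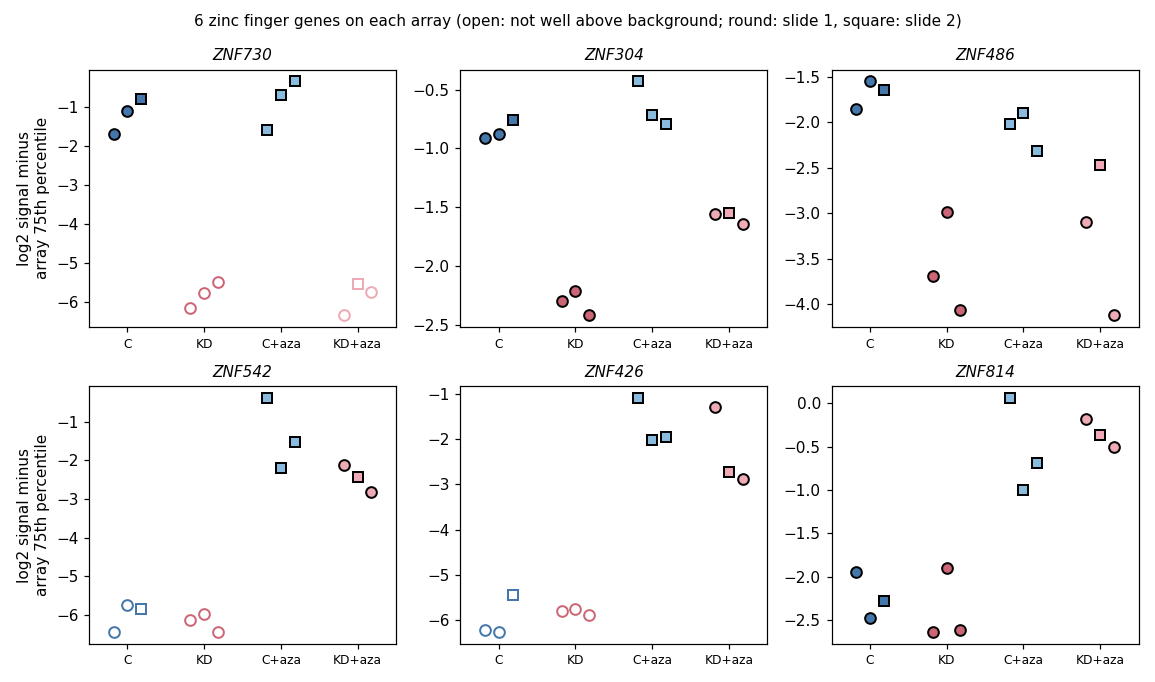
Log2 signal minus the array's 75th percentile of 6 member genes on each array, for control (C) and *TET1* knockdown (KD) clones without and with 5-aza-dC; open points were not well above background, round points lay on slide 1 and square points on slide 2. *ZNF730* lies below -5 on all knockdown arrays and *ZNF304* separates the clone types under both treatments, while *ZNF542* and *ZNF426* are open on all mock arrays and filled on all treated ones.

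Members known to bind retroelements were lower in 6 of 7 cases in the mock knockdown clones, and none was called. This share is near that of all tested members, of which 88.7% lay below 0. *ZNF91*, which represses SVA elements, was detected on 8 of 12 arrays and read -1.13 ± 0.05 (SD, n = 3) in control and -3.76 ± 2.35 in knockdown clones. Its knockdown clones 1, 2 and 3 read -5.57, -1.10 and -4.62, so that clone 2 lay within the control range. *ZNF93*, which binds LINE-1 elements, read -1.18 ± 0.60 in control and -2.33 ± 0.50 in knockdown clones. *ZNF765* differed by -0.69 and *ZNF808* by -0.98, and the clone types did not overlap for these and *ZNF93*. *ZNF649*, *ZNF417* and *ZNF587* differed by -0.49, -0.07 and 0.41, and the other *ZNF587* probe differed in the opposite direction. The median of the 7 was -0.69, against -0.47 for all members tested. *ZNF611* had no probe under this name.

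Of 9 members known for promoter methylation in tumours, 3 were tested under mock treatment and none was called. *ZNF177* read -0.99 ± 0.14 (SD, n = 3) in control and -2.31 ± 0.92 in knockdown clones without overlap, *ZNF331* 0.73 ± 0.10 and 0.56 ± 0.51, and *ZNF671* -0.62 ± 0.11 and -2.40 ± 1.87. Another *ZNF331* probe differed in the opposite direction. *ZNF382* and *ZNF677* were detected on no array, *ZNF154*, *ZNF471* and *ZNF582* on 2 each and *ZNF132* on 5.

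*ZNF274*, which binds the 3′ ends of zinc finger genes and recruits SETDB1 there, differed by -0.24 (adjusted p = 0.628). The 14 cofactors of KRAB silencing, which are not members, had a median of -0.09, and none was called. *TRIM28* read 4.84 ± 0.26 (SD, n = 3) in control and 3.84 ± 0.60 in knockdown clones (adjusted p = 0.398) and *CBX5*, which encodes HP1α, 3.93 ± 0.12 and 2.86 ± 0.59 (adjusted p = 0.371). *SETDB1* read 4.23 ± 0.24 and 4.18 ± 0.07.

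After 5-aza-dC the members again stood lower in knockdown than in control clones, but slide and clone type were nearly confounded. The 3 treated control clones and knockdown clone 2 lay on slide 2, and knockdown clones 1 and 3 on slide 1. The median over 284 tested members was -0.34, against -0.01 for all 24989 probes, and 75.7% lay below 0. *ZNF730* was called lower (background 0.08%) and no member was called higher (background 0.024%). At an unadjusted p under 0.05, 73 members were lower (25.7%, background 9.99%). Clone types did not overlap for 72 lower (25.4%, background 13.3%) and 6 higher members (2.11%, background 11.7%).

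With slide as a block the treated median was -0.15, and the medians of groups 3 and 4 went from -0.93 and -1.04 to -0.30 and -0.09. In this design that estimate rests on knockdown clone 2 alone, which was also closest to the control clones under mock treatment, where all knockdown arrays shared a slide. Without treated knockdown clone 2, every control array lay on slide 2 and every knockdown array on slide 1, and 115 members were called instead of 1 (40.5%, against 31.4% of all probes). Clone 2 and slide cannot be told apart in the treated arrays. Leaving out any other treated clone gave 0 calls, as *ZNF730* then missed the threshold or the detection filter.

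The 5 lowest p-values between treated clones were those of *ZNF730*, *ZNF836*, *ZNF304*, *ZNF606* and *ZNF20*. One *ZNF836* probe read -3.37, -3.49 and -3.33 in control and -4.49, -5.0 and -4.94 in knockdown clones and was detected on no treated knockdown array (at least 1.52-fold lower, adjusted p = 0.096). The other read -3.24, -3.04 and -3.07 against -6.25, -3.16 and -6.20 (adjusted p = 0.246), with knockdown clone 2 detected and within the control range. *ZNF606* read -0.69, -0.55 and -0.63 against -1.47, -1.38 and -1.53, and *ZNF20* -0.95, -1.01 and -0.95 against -2.08, -1.68 and -2.38 (both adjusted p = 0.153). For *ZNF606* and for both probes of *ZNF20* the treated clone types did not overlap.

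5-aza-dC raised few members. In control clones 4 of 287 tested members were called higher and 1 lower, where 3.83% of all probes were called higher and 1.37% lower. In knockdown clones 4 of 265 probes, for 3 genes, were called higher and none lower, where 2.04% and 0.0118% of all probes were. The median change was 0.04 in control and 0.14 in knockdown clones, against -0.02 and -0.09 for all probes. With the array median as the scale the median of all probes moved from -0.02 to -0.23 in control and from -0.09 to -0.35 in knockdown clones, and the members' median stayed above it by 0.05 and 0.23. That scale called 4 members higher and 9 lower in control clones (4.53% in all, against 10.3% of all probes). Taking each clone against its own mock array, the medians were 0.15, 0.00 and -0.09 in control and 0.12, 0.12 and 0.09 in knockdown clones. For control clones 1 and 2 and knockdown clone 2 the mock array lay on slide 1 and the treated one on slide 2. Their changes thus hold slide as well as treatment, while the other pairs shared a slide. Treated and mock clones did not overlap for 25 higher (8.71%, background 13.6%) and 42 lower members (14.6%, background 18.8%) in control clones. Leaving out mock control clone 3, the only mock control array on slide 2, left treatment and slide confounded and gave 94 calls (33.1%, against 35.4% of all probes). With slide as a block, changes in control clones thus set the treated arrays against mock control clone 3 alone. Leaving out any treated clone gave none in either clone type. The called probes of *ZNF426*, *ZNF542* and *ZNF528*, detected after treatment alone, then missed the detection filter, while *ZNF814* and *ZNF865* were tested and missed the threshold. In knockdown clones treated and mock arrays did not overlap for 23 higher (8.68%, background 7.46%) and 15 lower members (5.66%, background 11.7%).

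*ZNF542*, *ZNF426* and *ZNF814* were called higher in both clone types. *ZNF426*, a KRAB zinc finger gene of group 2 (chr19:9638979-9639038, hg19, minus strand, 10 spots per array), read -6.22, -6.27 and -5.44 in mock and -1.09, -2.01 and -1.94 in treated control clones. In knockdown clones it read -5.80, -5.76 and -5.90 under mock treatment and -1.29, -2.73 and -2.88 after 5-aza-dC. It was detected on no mock and on every treated array, at least 5.47-fold higher in control (limma, adjusted p = 0.00193) and 3.13-fold higher in knockdown clones (adjusted p = 0.00984). With slide as a block both were still called (adjusted p = 0.0222 and 0.0328), but a fit that blocked on the clone as well lost the call in control clones (adjusted p = 0.0957). In control clones that fit called none of the 24626 probes tested, so the lost call is not particular to *ZNF426*.

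*ZNF542*, the pseudogene *ZNF542P* of group 9 (chr19:56891060-56891119, hg19, plus strand), showed the same pattern. It read -6.45, -5.74 and -5.86 in mock and -0.39, -2.19 and -1.52 in treated control clones, and -6.13, -5.97 and -6.45 in mock and -2.11, -2.44 and -2.81 in treated knockdown clones. The bounds were at least 6.8-fold higher in control (adjusted p = 0.00443, with slide as a block 0.0574) and 2.82-fold higher in knockdown clones (adjusted p = 0.000871, with slide as a block 0.00526). Its second probe was called in knockdown clones (adjusted p = 0.00971) and was detected on 2 of 3 treated control arrays.

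*ZNF814* of group 9 (chr19:58380755-58380814, hg19, minus strand) was measured on all 12 arrays. It read -1.95, -2.48 and -2.28 in mock and 0.06, -1.0 and -0.69 in treated control clones, a change of 1.69 ± 0.31 (SE, limma adjusted p = 0.0341, with slide as a block 0.158). In knockdown clones it read -2.64, -1.90 and -2.62 and then -0.18, -0.37 and -0.50, a change of 2.03 ± 0.27 (adjusted p = 0.0131, with slide as a block 0.0475). Another *ZNF814* probe changed by 0.18 in control and 0.55 in knockdown clones and was not called.

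*ZNF528*, a KRAB zinc finger gene of group 8 (chr19:52921177-52921236, hg19, plus strand), was called higher in control clones. It read -6.38, -6.35 and -5.52 in mock and -1.75, -3.01 and -3.33 in treated control clones, at least 2.7-fold higher (adjusted p = 0.0129, with slide as a block 0.113). In treated knockdown clones it read -3.96, -3.15 and -4.65 against -6.08, -5.98 and -6.45 under mock treatment and was detected on 2 arrays, too few to be tested there. Whether its response differed between clone types is thus not shown. One *ZNF865* probe was called lower in control clones, from 0.40, 0.26 and 0.72 to -0.55, -0.29 and -0.54 (-0.92 ± 0.19 SE, limma adjusted p = 0.0494, with slide as a block 0.0584). The brightest *ZNF865* probe changed by 0.00 and a further one by 0.57, so the probes of this gene did not move together.

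Among the remaining low p-values in knockdown clones, *ZNF304* changed by 0.72 ± 0.18 (SE, adjusted p = 0.185) and *ZNF420* by 0.62 ± 0.19 (adjusted p = 0.357). Neither was called. No tumour-methylated or retroelement-binding member was called in either clone type. Of the 14 cofactors *MPHOSPH8*, a HUSH complex subunit, was called higher in control clones (1.33, limma adjusted p = 0.0297). *MPHOSPH8* read 2.23, 2.17 and 2.9 in mock and 3.82, 3.78 and 3.7 in treated control clones. Mock control clone 3 and all treated control clones lay on slide 2. In knockdown clones it read 1.45, 2.6 and 2.35 and then 1.29, 4.09 and 2.85, with only treated clone 2 on slide 2. The change there was 0.61 ± 0.71 (SE, limma adjusted p = 0.799). The part of slide in the *MPHOSPH8* call was not tested.

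The response to 5-aza-dC was not shown to differ between clone types for any member. In the interaction fit over 12 arrays, 294 members had a median of 0.13 against -0.02 for all probes, none was called (background 0.0293%) and 4 had an unadjusted p under 0.05 (background 2.47%). The 5 lowest p-values belonged to *ZNF223* (0.68), *ZNF404* (0.92), *ZNF304* (0.52), *ZNF254* (1.56) and *ZNF419* (0.51), each with an adjusted p of 1. By position, the 5-aza-dC changes of groups 3 and 4 had medians of 0.04 and 0.18 in control and -0.06 and 0.27 in knockdown clones. Within a slide they were -0.12 and -0.19 in control and -0.18 and -0.13 in knockdown clones. The within-slide values set the treated control clones against mock control clone 3 alone. In knockdown clones they set treated clones 1 and 3 against the mock clones.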

How the data were processed

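The deposited scanner files hold spot intensity, which the authors extracted with Agilent Feature Extraction 10.7.3.1, background-corrected and not normalized between arrays per the file headers. Control and outlier spots were left out, spots of a probe were averaged, and log2 values were centred on the 75th percentile of each array. Probe positions are those of the files (hg19). Comparisons used two-sided limma fits (version 3.58.1, lmFit then eBayes, R 4.3.3, the data.table package 1.17.8) over all probes that 3 or more of the fitted arrays had well above background (in at least 50% of spots), with Benjamini-Hochberg adjustment over all of them at 0.05. The code was tested on simulated data. Position groups were split at gaps over 1 Mb, and groups under 5 genes were pooled. The lowest detected signal per array served for bounds.

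The members, lists and tests were chosen with earlier results of these data known. Genes named were *TET1*, the lists, called members with clone types or treatments that did not overlap (up to 10 per direction), otherwise the 5 lowest p-values, and the 5 brightest members. A list gene was read by its brightest probe. Clone numbers mark the same clone in treated and mock arrays (correlation of deviations 0.213 to 0.525 over 27200 probes). They did not pair control with knockdown clones (-0.0288 to 0.0886). The main fits, the interaction among them, were unpaired and left this pairing out. It entered only the changes per clone and the alternative fits with the clone number as a block. Each clone gave 1 array per treatment, so p-values rest on the spread between clones. The number of arrays limits precision. One marker gene is not reported here.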

Additional observations from a re-analysis of the deposited data

How the results depend on the processing

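The median difference of the members between knockdown and control clones stayed below 0 under every alternative run, at -0.59 to -0.29 under mock treatment and -0.38 to -0.14 under 5-aza-dC, nearest 0 under normexp and within slide 2. Calls were few and moved with the setting. Against 1 call each, the mock comparison gave 0 with detection on every array required, by the methods' t-test and within slide 1, and 2 over 12 arrays with slide as a block. The treated comparison gave 0 under normexp with offset 50, detection on every array, slide as a block, the methods' t-test and within slide 2. Leaving out 1 clone gave 0 to 7 and 0 to 115 calls, with medians of -0.59 to -0.39 and -0.38 to -0.29.

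For 5-aza-dC in control clones, 5 calls became 13 with the array median as the scale (median change -0.18), 1 with detection on every array, 1 with slide as a block, 8 over 12 arrays with slide as a block (median -0.15), 1 by the methods' t-test, 3 with 1 probe per gene and 1 within slide 2. In knockdown clones, 4 became 2 under normexp, 1 with detection on every array, 9 over 12 arrays with slide as a block, 1 by the methods' t-test, 2 with 1 probe per gene and 0 within slide 1, and the array median as the scale gave a median of -0.13. Leaving out 1 clone gave 0 to 94 and 0 to 4 calls, with medians of -0.04 to 0.09 and 0.01 to 0.25. The interaction gave 0 calls under all alternatives run, with medians of 0.06 to 0.23 when 1 array was left out.

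With the clone number as a replicate block, the calls for 5-aza-dC were 4 in control clones, without *ZNF865* (adjusted p = 0.0835), and 4 in knockdown clones. With clone and slide together as blocks they were 0 and 4, and in control clones that fit called none of the 24626 probes tested. No other call changed with the replicate block, which gave 1 call in each knockdown comparison. *TET1* stayed at -1.05 to -0.83 when 1 array was left out. The median share of members detected per array was 77.9%, and 83.9% with 1 probe per gene. Without knockdown clone 1, *ZNF331* and *ZNF417* turned to 0.03 each in the mock comparison, and leaving out 1 clone at a time put them at -0.46 to 0.03 and -0.17 to 0.03. The cause of these changes was not tested. Probes near background have compressed differences, and 34 members gave no signal above background on any array.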
